A study of Mus musculus with 11 samples.

Results

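Inner pillar cells of the embryonic day 16 (E16) mouse cochlea were taken as the E16 cells with a deposited Npy value of at least 2.5, Matn4 below 2.0, Oc90 below 3.5 and no read of Pou4f3 or Ccer2, where each value is the natural log of 1 plus the cell's UMIs per 10000 (a UMI is one counted mRNA molecule). There were 100 such cells (members) among the 7961 cells of the 3 E16 libraries and the 30634 cells of the whole series: 14 of 1247 in library 1, 34 of 2813 in library 2 and 52 of 3901 in library 3. Npy encodes neuropeptide Y, Matn4 marks inner phalangeal cells, Pou4f3 and Ccer2 mark hair cells and Oc90 marks the roof of the duct. The rule used these measured values, so these 5 genes are described and never tested. The members were compared with the 6706 other E16 cells that lacked both hair cell genes.

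All samples were 10x Chromium droplet libraries of enzymatically dissociated epithelium from the floor of the cochlear duct of Wildtype CD1 mice, collected at E14, E16, P1 (postnatal day 1) and P7. No animal received a treatment or carried an engineered allele. Each collection pooled embryos or pups of either sex, so the animals within a library could not be told apart. The p-values below measure how far a difference between groups of cells varied between libraries, which may be technical. They also draw on the variances of other genes. The E16 libraries held 3828399, 10274769 and 11797815 UMIs, with a median of 2478, 2695 and 2750 UMIs per cell, and each shared 16 to 23 cell barcodes with the other E16 libraries; 1 member had such a barcode. The members were deeper than the other cells, with median UMIs of 3330, 3532 and 3612 against 2412, 2445 and 2722. For shares of cells with a UMI, each cell was therefore thinned to 1500 UMIs, which left out 1 of the other cells and no member.

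Inner pillar cells are supporting cells of the organ of Corti that stand between the inner hair cells and the outer pillar cells, and with the outer pillar cells they form the walls of the tunnel of Corti. They arise from the prosensory domain, and their formation depends on fibroblast growth factor (FGF) signalling through the receptor FGFR3, with FGF8 supplied by the neighbouring inner hair cell. Mature pillar cells are known for dense bundles of microtubules and actin that stiffen them, and developing pillar cells for expression of the neurotrophin receptor Ngfr.

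Npy was present in every member by construction. Mean Npy levels of the members were 2754, 3399 and 5334 CPM (averaged over cells, where 10000 CPM is 1% of a cell's UMIs) in libraries 1, 2 and 3, against 9.26, 9.67 and 6.42 CPM in the other cells. A member held from 2 to 105 Npy UMIs, with a median of 9. Of the other cells, 1.61% held an Npy UMI (108 cells). The gene lies on chromosome 6 from 49822710 to 49829507 on the plus strand (GRCm38).

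Among cells that met every other part of the rule, the Npy values formed no gap at 2.5. In the 20 cells with values from 2.0 to 2.5, just outside the rule, the mean level of the antisense RNA Gm45645 was 47.6 CPM, and in the 36 cells from 2.5 to 3.0, just inside, it was 339 CPM. Ngfr was at 101 CPM just outside and 285 CPM just inside, and S100b at 58.1 and 329 CPM. Cep41 was at 16.2 and 224 CPM and Cryab at 2083 and 4320 CPM, while Epyc fell from 713 to 134 CPM. Some genes did not rise at this step, since Tectb was at 2185 CPM outside and 1862 CPM inside, and Fgfr3 at 164 and 134 CPM. In the 30 members with Npy of 4.0 and above, Gm45645 reached 1459 CPM, S100b 789 CPM and Cryab 7455 CPM. Genes of Kölliker's organ ran the other way: Mia was at 3451 CPM in the 6033 cells without Npy and 23.6 CPM in the top bin, and Epyc at 2636 and 70.6 CPM.

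**Figure D1:**
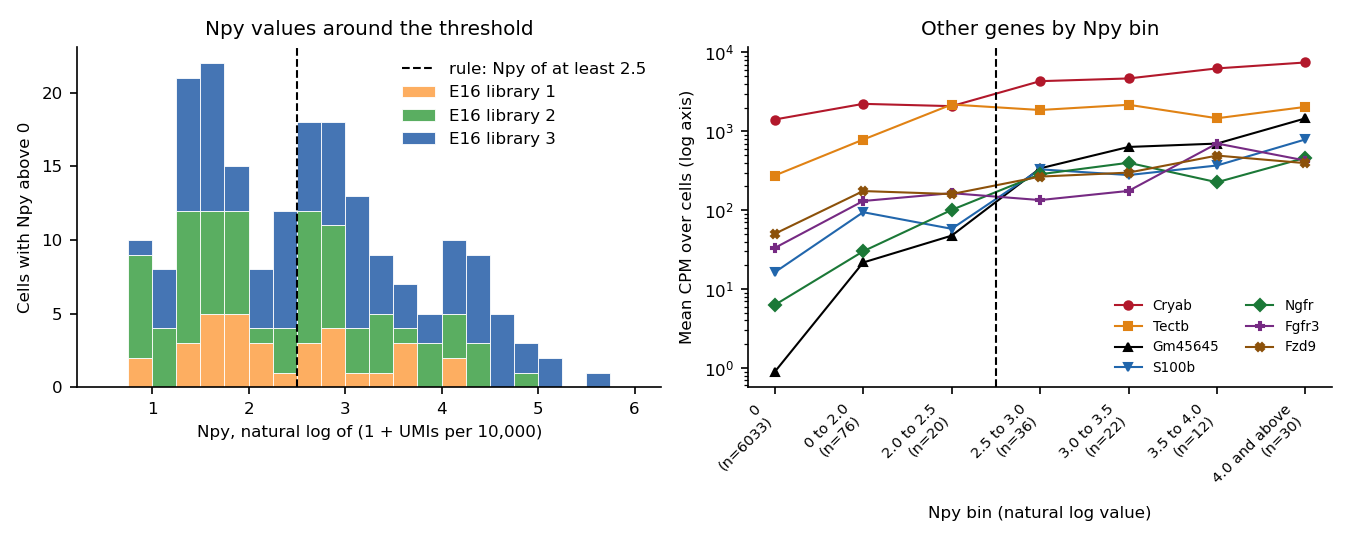
Left, numbers of E16 cells by Npy value (natural log of 1 plus UMIs per 10000), stacked by library, for cells with Npy above 0 that met the other parts of the rule; the dashed line is the threshold of 2.5. Right, mean CPM (log axis) of 7 genes in 7 bins of Npy value, where Gm45645 climbs from 0.893 CPM without Npy to 1459 CPM at 4.0 and above while Tectb is already at 2185 CPM just below the threshold.

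The members made up 1.12%, 1.21% and 1.33% of the cells of E16 libraries 1, 2 and 3, with exact 95% binomial intervals of 0.615 to 1.88, 0.838 to 1.68 and 0.997 to 1.74%, which cover counting error only. These intervals overlap one another. The same rule found 14 cells in the E14 libraries, 178 in the P1 libraries and 27 in the P7 libraries. The shares were 0.227 and 0.295% at E14, from 1.07 to 1.51% at P1, and 0.845 and 0.749% at P7. They are descriptions, since the Npy threshold and the dissection both enter them.

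The label was set beside the 9 marker genes of inner pillar cells that the rule did not use (Fgfr3, Fzd9, Emid1, S100b, Ngfr, Hes5, Cryab, Cep41 and Prox1). All but Prox1 are also among the 50 genes of the study's own P1 inner pillar list that are counted below. These markers therefore carry no independent evidence of the identity of the cells. After thinning, a member held a median of 3 of these markers, and 46 of 100 members held at least 4, compared with 2.25% of the other cells. At most 1 was held by 18 of 100 members and by 5582 of 6705 other cells. The 303 E16 cells of a lateral prosensory gate, itself set in part by Prox1, also had a median of 3, and 24.1% of them held at least 4. Ngfr was seen in 36 of 100 thinned members (exact 95% interval 26.6 to 46.2%) and in 0.776% of the other cells, and S100b in 43 of 100 (33.1 to 53.3%) and 3.01%. Fgfr3 was seen in 30 of 100 (21.2 to 40.0%) and 3.80%, and Fzd9 in 26 of 100 (17.7 to 35.7%) and 5.23%. Without thinning, 8 members held none of the 9 markers.

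The data went against the label for 6 members, all of them in library 2. These 6 cells held 20 to 55 UMIs of Fabp7, a lipid-binding protein of glial and progenitor cells, and were singled out after their values were seen. All 6 held UMIs of Ednrb, a receptor of neural crest derivatives, and of the mitotic gene Ube2c, while 3 held Sox10 and 2 held Foxd3. None of the 6 held a UMI of the epithelial genes Epcam and Cdh1, of Tecta, Gata3, Tectb or Gm45645, and 5 of the 6 held none of the 9 inner pillar markers. Their summed level of 30 proliferation genes was 19476 CPM, compared with 439 to 500 CPM per library in the other 94 members. Npy met the threshold in each of them (31 UMIs in all). They are called Fabp7-high cells here. The main count of calls of each comparison, and levels of library 2 that they raised by much, are given with and without them. Counts of calls within gene lists include them. Without them the members were 0.995% of library 2. Of the other 94 members, 46 held at least 4 of the 9 markers after thinning, 38.3% held Ngfr, 44.7% S100b, 31.9% Fgfr3 and 27.7% Fzd9. Among these 94, 12 held at most 1 of the 9 markers after thinning, 6 of them in library 3. Without thinning, 3 of the 94 held none. With the Fabp7-high cells included, the proliferation sum of library 2 members was 3829 CPM against 500 and 439 CPM in libraries 1 and 3. The inner phalangeal marker sum was then 3364 CPM against 249 and 548 CPM. Without them these sums were 476 and 547 CPM in library 2.

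Against all other E16 cells without hair cell genes, 101 genes were higher and 172 lower in the members among 8698 genes tested (limma, library as a block, Benjamini-Hochberg adjusted p under 0.05; 3.14% of all genes tested, 1.16% higher and 1.98% lower). With only genes of at least 50 CPM, 58 were higher and 72 lower of 3296. On simulated data this comparison made more false calls than its threshold allows, and the 50 CPM filter removed the excess there, so the p-values below may be too small. The simulation did not let the class effect vary between libraries, nor cells differ within a class. It therefore cannot show that the filter corrects the p-values of the real data. Under that filter limma's adjusted p was 0.000179 for Gm45645, 0.000809 for Ngfr, 0.00227 for Fgfr3 and 0.000533 for Mia. The fold changes below are on log2(CPM + 10), and the median over all genes tested was -0.15, so each is to be read against that shift. With the mean of the deposited log values in place of mean CPM, 247 genes were higher and 152 lower, so the balance of directions depended on the scale. Without the Fabp7-high cells the counts were 144 and 267, where limma took 1 variance trend for all genes (infinite prior degrees of freedom), which makes p-values smaller. The main fit also took most of each gene's variance from the trend over other genes, with 28.9 prior and 2 residual degrees of freedom. The p-values of the main fit therefore do not rest on the libraries alone. Levels in the members and the other cells did not overlap between the 3 libraries for 20.4% of all genes tested (7.54% with the members higher).

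Gm45645, an antisense RNA, stood first among the higher genes. Its levels in the members were 816, 842 and 735 CPM in libraries 1 to 3, and 3.31, 2.18 and 0.423 CPM in the other cells (log2 fold change 6.08 ± 0.37 SE, limma's adjusted p = 1.2e-13, n = 3 libraries). A UMI of Gm45645 was found in 58 of the 100 members and in 25 of the 6706 other cells, and in none of the Fabp7-high cells. The gene lies on chromosome 14 from 27838165 to 27876217 on the minus strand and overlaps Erc2 on the plus strand by 38053 bp. Whether the counting used strand is not stated in the sources used here, and whether reads of these overlapping genes were kept apart was not checked. Erc2 itself was at 0, 0 and 27.8 CPM in the members.

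Ngfr, the low-affinity neurotrophin receptor, was at 324, 372 and 354 CPM in the members and at 5.92, 8.08 and 6.18 CPM in the other cells (log2 fold change 4.43 ± 0.41, limma's adjusted p = 2.22e-09). S100b, a calcium-binding protein, was at 554, 239 and 581 CPM against 20.0, 26.4 and 25.4 CPM (3.69 ± 0.36, adjusted p = 7.84e-09). For both genes every library of the members lay above every library of the other cells. The small heat shock protein gene Cryab was at 5368, 4731 and 6178 CPM against 1574, 1469 and 1376 CPM (1.87 ± 0.09, adjusted p = 2.97e-16). Cryab was thus abundant outside the members as well, with a UMI in 77.2% of the other cells.

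The FGF receptor gene Fgfr3 was at 593, 261 and 244 CPM in the members and 49.5, 45.4 and 18.6 CPM in the other cells (2.93 ± 0.34, limma's adjusted p = 3.61e-07). The Wnt receptor gene Fzd9 was at 503, 128 and 434 CPM against 48.0, 50.7 and 47.8 CPM (2.42 ± 0.36, adjusted p = 2.35e-05). Library 2 had the lowest Fzd9 level of the 3, also without its Fabp7-high cells (155 CPM), and still lay above all libraries of the other cells. Emid1, which encodes a secreted protein, was at 531, 440 and 428 CPM against 62.4, 59.5 and 65.8 CPM (2.71 ± 0.29, adjusted p = 3.65e-08). Of the 9 tested inner pillar markers 7 were higher and none lower, with a median of 2.71. The remaining pair did not pass. The Notch target Hes5 was at 134, 16.9 and 552 CPM against 37.4, 44.8 and 144 CPM (0.81 ± 0.44, adjusted p = 0.455), below the other cells in library 2 alone, and the homeobox gene Prox1 was at 157, 82.9 and 65.4 CPM against 51.7, 31.3 and 10.5 CPM (adjusted p = 0.0607).

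**Figure D2:**
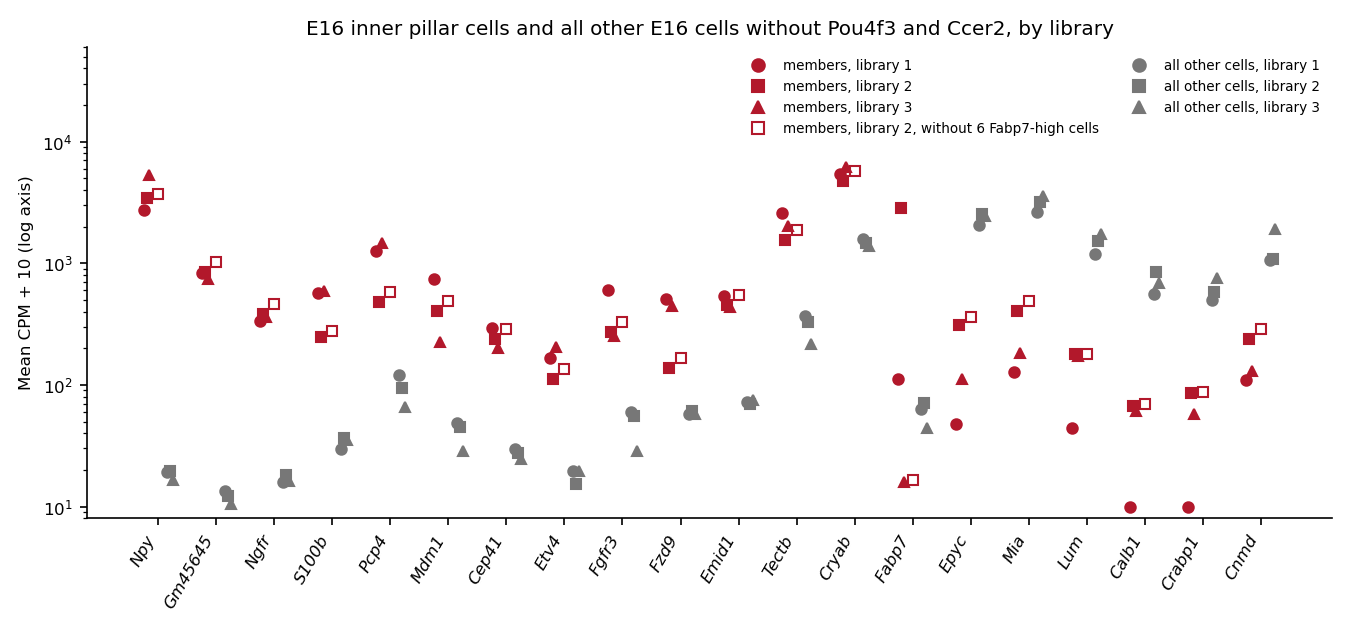
Mean CPM plus 10 (log axis) of selected genes in E16 inner pillar cells (red) and all other cells without hair cell genes (grey), with 1 symbol shape per library and an open square for library 2 without its 6 Fabp7-high cells. Npy chose the cells; Gm45645 and Ngfr sit far above the other cells in all 3 libraries, and Fabp7 drops in library 2 from 2848 to 6.46 CPM when the 6 cells are left out.

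Mdm1, Cep41, Gm13782, Pcp4 and Ptprz1 were also among the 12 genes with the largest increases. Mdm1, which encodes a centriolar microtubule-binding protein, was at 736, 394 and 215 CPM against 38.8, 34.8 and 18.4 CPM (3.36 ± 0.34, limma's adjusted p = 1.67e-08). Cep41, a ciliary and centrosomal protein gene, was at 284, 228 and 191 CPM against 19.5, 17.6 and 14.5 CPM (3.15 ± 0.40, adjusted p = 1.39e-06). The antisense RNA Gm13782, on chromosome 6 from 30673944 to 30682266 on the plus strand, lies over Cep41 for its whole 8323 bp. It was at 96.2, 118 and 124 CPM in the members and at 1.28 to 2.73 CPM in the other cells (3.32 ± 0.53). Its call was lost with only genes of at least 50 CPM (limma's adjusted p = 0.095). Whether reads of this overlapping pair were kept apart was not checked either. Pcp4 was at 1259, 471 and 1471 CPM against 111, 84.8 and 56.3 CPM (3.41 ± 0.28, adjusted p = 2.01e-10), and the receptor tyrosine phosphatase gene Ptprz1 at 619, 236 and 136 CPM against 28.4, 20.5 and 13.5 CPM (3.23 ± 0.39, adjusted p = 6.66e-07). Smagp, Fam159b and Dhrs7 completed the 12 genes with the largest increases, at log2 fold changes of 3.12, 3.02 and 2.96. Dhrs7 was uneven, with 568 CPM in library 1 and 95.3 and 83.8 CPM in libraries 2 and 3.

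Genes of the FGF pathway were examined next. Of 18 tested, 4 were higher and none lower (1 had a lower value at an unadjusted p under 0.05), with a median of 0.32. Beside Fgfr3 they were Phlda1 (1.94 ± 0.24, limma's adjusted p = 6.02e-07), and the ETS transcription factor genes Etv4 (3.13 ± 0.47, adjusted p = 2.85e-05) and Etv1 (2.24 ± 0.51, adjusted p = 0.007), both of a family that acts downstream of FGF receptors. Etv4 was at 158, 103 and 197 CPM in the members against 9.70, 5.20 and 9.64 CPM. The related Etv5 was at 117, 62.6 and 45.7 CPM against 17.9, 12.8 and 22.5 CPM and did not pass (1.54 ± 0.50, adjusted p = 0.1). The feedback gene Dusp6 had a difference of 0.15 ± 0.42, and Fgfr1 of -1.18 ± 0.42 (adjusted p = 0.164). Fgf8 and Spry4 had a UMI in 0 of 100 members. By a floor of 3 counts, which is not an exact interval, this allows a share of up to 3% of cells with one.

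Of the Notch pathway, 3 of 15 genes tested were higher and none lower (1 was lower at an unadjusted p under 0.05). They were Hes6 (1.73 ± 0.31, limma's adjusted p = 0.000383), the target Hey2 (2.21 ± 0.50, adjusted p = 0.00597) and the ligand Jag1 (1.33 ± 0.34, adjusted p = 0.0192). Jag1 was at 398, 154 and 136 CPM against 86.1, 77.1 and 63.8 CPM. Hes1 levels differed far more between libraries than between classes, at 143, 174 (102 without the Fabp7-high cells) and 1872 CPM in the members and 195, 196 and 2523 CPM in the other cells. Of the Wnt pathway, 2 of 30 genes were higher, Fzd9 and the R-spondin receptor Lgr5 (1.63 ± 0.38, adjusted p = 0.00782), and 3 were lower, the secreted modulators Sfrp1 (-1.70 ± 0.20), Dkk3 (-2.69 ± 0.52) and Rspo2 (-2.57 ± 0.56). Of the TGF-beta and BMP pathway none of 27 was higher, also at an unadjusted p under 0.05, and Id1, Tgfb2 and Id3 were lower. Id1, an inhibitor of bHLH transcription factors, was at 772, 564 and 28.0 CPM in the members against 910, 1013 and 263 CPM, so library 3 was low in both classes.

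Of 28 prosensory and supporting cell transcription factors tested, 3 were higher and none lower (5 were lower at an unadjusted p under 0.05). Beside Hey2 they were Trps1 (1.97 ± 0.46, limma's adjusted p = 0.00859) and Sox2, the prosensory factor (1.19 ± 0.31, adjusted p = 0.0214). Gata3 and Sox9 had differences of 0.30 ± 0.19 and -0.31 ± 0.24.

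Among 43 microtubule genes tested 5 were higher and none lower (2 were lower at an unadjusted p under 0.05), and their median of -0.03 lay near that of all genes. The 5 were Mdm1, Cep41, the microtubule destabiliser gene Stmn1 (1.02 ± 0.17), the alpha-tubulin gene Tuba1a (0.61 ± 0.11) and Gas2 (1.04 ± 0.23), which encodes a protein that binds actin and microtubules. Stmn1 in library 2 dropped from 1409 to 898 CPM without the Fabp7-high cells, and its call held without them. Of 31 actin genes, the bundling gene Fscn1 and the crosslinker gene Actn4 were higher, and Tmsb10, Tmsb4x, Myl6 and Pfn2 lower.

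Of 4 neurotrophin genes and receptors tested, Ngfr and Bdnf were higher (Bdnf 2.14 ± 0.56, limma's adjusted p = 0.0231), and the median was 1.60. Bdnf rested on few molecules (3, 6 and 6 UMIs in the members of libraries 1 to 3) and lost its call when any 1 library was left out. Ntf3 had a difference of 1.06 ± 0.32 (adjusted p = 0.072). None of 9 tested genes of neuropeptide processing and secretory granules passed in either direction, also at an unadjusted p under 0.05. The prohormone convertase gene Pcsk2 and the granin gene Chgb had no UMI in any member, and the carboxypeptidase gene Cpe was at 152, 80.1 and 112 CPM against 76.6, 83.7 and 84.7 CPM.

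With the Fabp7-high cells included, none of 23 proliferation genes tested passed in either direction, also at an unadjusted p under 0.05. The 30 genes of the list summed to 500, 3829 and 439 CPM in the members of libraries 1 to 3 (476 CPM in library 2 without its Fabp7-high cells) and to 714 to 863 CPM in the other cells. Of 12 cell cycle inhibitors and D cyclins, Ccnd1 was higher (1.30 ± 0.30, limma's adjusted p = 0.00903) and Cdkn1c lower (-1.98 ± 0.26, adjusted p = 2.62e-06). The Cdkn1c difference was largest in library 3 (-3.40, against -1.36 and -1.17 in libraries 1 and 2) and was -1.27 without it. Cdkn1b, the inhibitor that marks the exit of prosensory cells from the cycle, was at 15.1, 96.6 and 103 CPM against 49.3, 46.5 and 39.1 CPM (0.29 ± 0.49).

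The gene Tectb, which encodes beta-tectorin of the tectorial membrane, was at 2572, 1540 and 2022 CPM in the members against 362, 319 and 207 CPM (2.75 ± 0.17, limma's adjusted p = 1.17e-13). Tecta, the gene of alpha-tectorin, went the other way, at 333, 229 and 381 CPM against 634, 552 and 542 CPM (-0.88 ± 0.20, adjusted p = 0.00793). Of 12 tested tectorial membrane genes, Tectb was the single one higher and 7 were lower: Epyc, Tecta and the collagen genes Col2a1, Col9a1, Col9a2, Col9a3 and Col11a1. Of 24 adhesion genes, Ptprz1, Emb, Npnt and Frem2 were higher and Itga8 and Cdh4 lower. Of 20 glial-type and ion buffering genes, Cryab, S100b, Ckb and Aldoc were higher, and the lower genes included the connexin gene Gjb2 and Atp1b1. The list of 11 planar polarity genes had no call in either direction, also at an unadjusted p under 0.05.

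The largest decreases included genes of Kölliker's organ, the tall epithelium on the medial side of the sensory region. All 7 of its markers were lower, with a median of -3.88, though Adgrg2 among them lost its call without library 1 or library 2. The proteoglycan gene Epyc was at 37.6, 303 and 102 CPM in the members and 2066, 2553 and 2415 CPM in the other cells (-4.30 ± 0.25, limma's adjusted p = 6.25e-14). Calb1, the calbindin gene, was at 0, 57.7 and 50.8 CPM against 551, 832 and 683 CPM (-4.32 ± 0.36, adjusted p = 2.89e-10), and the retinoic acid-binding protein gene Crabp1 at 0, 75.8 and 47.7 CPM against 493, 572 and 743 CPM. No library of the members came near the other cells for these genes. Mia, Lum, Smoc2, Sparcl1, Gsn, Meg3, Pcolce2 and 1500015O10Rik had log2 fold changes from -4.15 to -3.70. Of these, Sparcl1 is on the roof and lesser epithelial ridge lists, Gsn on the latter and Smoc2 on the interdental list. Markers of these regions were lower too, at 2 of 3 tested for the roof, 2 of 4 for the lesser epithelial ridge and 3 of 5 for interdental cells. None of them was higher. Gadd45g had no UMI in any member and 134 to 154 CPM in the other cells. The 12 largest increases, the 12 largest decreases, Fgfr3 and Fzd9 kept their calls when any 1 library was left out, and all of these but Gm13782 kept them with only genes of at least 50 CPM.

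Many of the smaller changes of pathway genes rested on less. With only genes of at least 50 CPM, Hey2, Jag1, Sox2, Trps1, Dkk3, Id1, Id3, Tgfb2, Gas2, Actn4, Myl6, Pfn2, Ccnd1, Aldoc, Atp1b1, Col11a1 and Tecta lost their calls, and Etv1, Bdnf and Rspo2 lay under that level. Without library 3, which held 52 of the members, Hes6, Hey2, Lgr5, Sox2, Etv1, Rspo2, Dkk3, Id1, Id3, Gas2, Fscn1, Actn4, Pfn2, Ckb and Aldoc were no longer called. Without library 2, Hey2, Lgr5, Sox2, Etv1, Rspo2, Trps1, Id3, Tgfb2, Gas2, Fscn1, Pfn2, Atp1b1, Tecta and Ier2 were not called, and without library 1, Jag1, Ccnd1, Actn4 and Myl6. None of these calls was lost when the Fabp7-high cells were left out.

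Markers of other cell types were read as summed levels over each list. The 15 hair cell genes summed to 207 to 412 CPM in the members and 170 to 193 CPM in the other cells. Of 5 tested, none passed in either direction, with a median of 0.72. In members of libraries 1 and 3, Rprm was at 61.8 and 131 CPM and Cd164l2 at 65.1 and 67.8 CPM. Myo6 was at 60.4 and 20.2 CPM there, Atoh1 at 33.2 and 70.1 CPM and Cib2 at 0 and 76.2 CPM. Without thinning, Atoh1 had a UMI in 8 of 100 members and 1.33% of the other cells. Pvalb, Lhfpl5, Gfi1, Lhx3, Barhl1, Otof and Tmc1 were at 0 in all members. The 7 mesenchyme genes summed to 80.9 to 175 CPM against 646 to 1008 CPM, with Col1a1, Pou3f4, Postn and Twist1 at 0. The 7 Deiters cell genes summed to 830 to 986 CPM against 704 to 1382 CPM. The 10 glia and neuron genes summed to 146 to 297 CPM against 184 to 245 CPM, and 297 CPM was library 2 with its Fabp7-high cells (136 CPM without them). Dissociation stress genes summed to 2529 to 3405 CPM against 3482 to 5017 CPM, and Fos and Ier2 were among the lower genes; their part in the other differences was not tested.

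A pair of gene lists that the study itself drew up from inner pillar cells at P1 and P7 was also counted. They were chosen by the study on other libraries of this series, and so carry no independent evidence of the identity of these cells. The 50 genes counted from the head of the P1 list hold none of the genes of the rule, although the paper puts Npy among the top P1 inner pillar genes. Of these 50 genes, 41 were higher and none lower at E16 (none was lower at an unadjusted p under 0.05), with a median of 1.71. The 9 that did not pass were Hes5, Pkd2l1, Map4, Serpine2, Lfng, Map2k1, Arrdc4, Rassf10 and Ace. Of the P7 list 42 genes could be tested, of which 17 were higher and 2 lower (Efhd1 and Nrep), with a median of 0.61. Nrep lost its call without library 2 or library 3, and with only genes of at least 50 CPM.

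**Figure D3:**
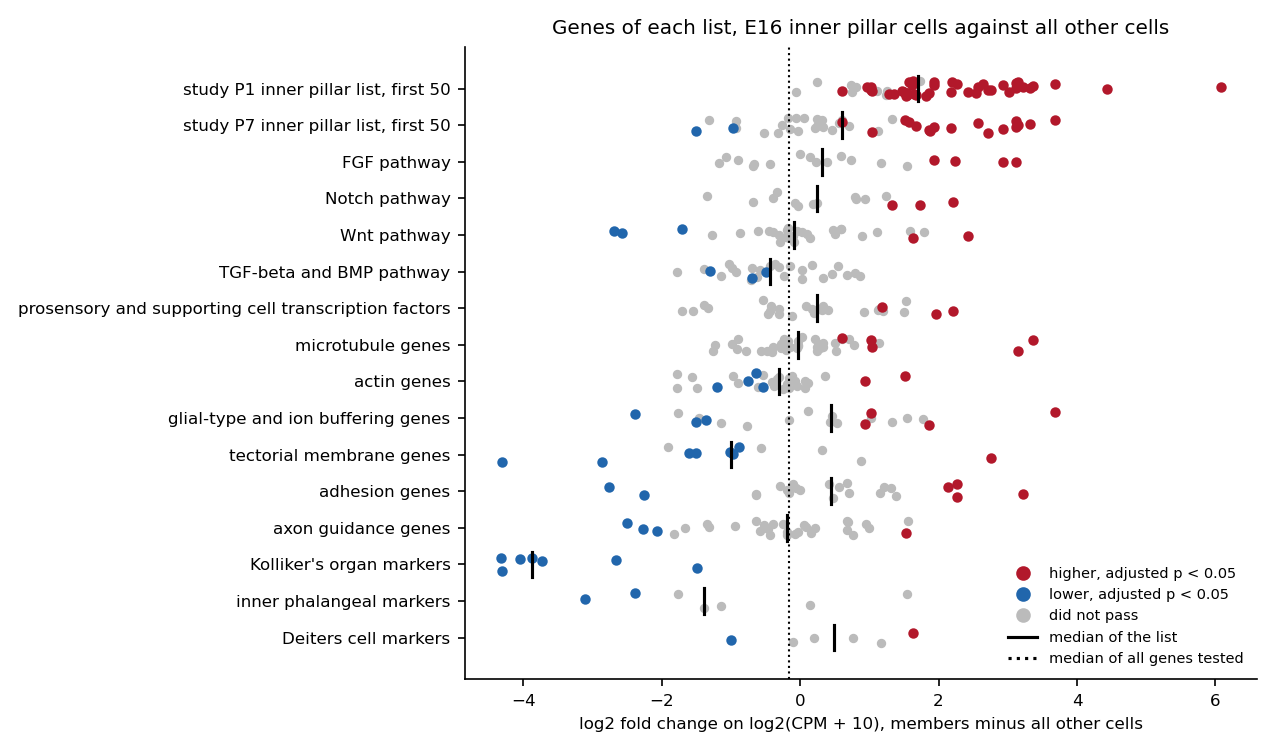
Log2 fold change of each tested gene, members minus all other E16 cells, by gene list, with genes of adjusted p under 0.05 in red (higher) or blue (lower), a black bar at each list's median and a dotted line at the median of all genes tested (-0.15). The P1 list lies mostly to the right and the Kölliker's organ markers wholly to the left.

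The members were next compared with a lateral prosensory gate of 303 E16 cells without Npy that held UMIs of at least 2 of Prox1, Nrcam, Tgfbr1, Elmo1 and Bmp2 (56, 149 and 98 cells in libraries 1 to 3). The lateral prosensory domain gives rise to outer hair cells, Deiters cells and pillar cells. The 5 genes of the gate were not tested either. Of 8572 genes, 22 were higher and 27 lower in the members (0.572% of all genes tested, 0.257% higher and 0.315% lower; limma). With the mean of the deposited log values the counts were 28 and 18. Simulated data gave some excess of false calls here too, and with only genes of at least 50 CPM the adjusted p (limma) was 6.81e-05 for Gm45645 and 0.00312 for Ngfr. The libraries did not overlap for 12.5% of genes (4.67% with the members higher). The genes that separated the members from all other cells divided here into those that still differed and those that did not.

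Fgfr3 and Fzd9 did not pass against the lateral gate. Fgfr3 was at 277, 305 and 224 CPM in the lateral gate, so the libraries overlapped those of the members (0.33 ± 0.28, limma's adjusted p = 0.756), and Fzd9 was at 165, 255 and 437 CPM (0.20 ± 0.34, adjusted p = 0.902). Emid1 missed the threshold (1.11 ± 0.26, adjusted p = 0.0591), as did Pcp4 (0.82 ± 0.21, adjusted p = 0.0892), and the level of Tectb was 1625, 1520 and 1187 CPM in the gate (0.48 ± 0.13, adjusted p = 0.112). A p above the threshold does not show that these levels were equal.

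Gm45645 was at 0, 4.58 and 2.18 CPM in the lateral gate, and its difference of 6.06 ± 0.42 was as large as against all other cells (limma's adjusted p = 6.3e-09). Ngfr was at 10.9, 44.8 and 40.6 CPM there (3.22 ± 0.41, adjusted p = 5.16e-05) and S100b at 22.3, 114 and 95.6 CPM (2.54 ± 0.42, adjusted p = 0.00206). The S100b call was lost with only genes of at least 50 CPM (adjusted p = 0.061). Cryab was at 2808, 2633 and 3358 CPM (0.88 ± 0.07, adjusted p = 1.51e-08), below every library of the members. The other genes with the largest increases were Npnt, which encodes the integrin ligand nephronectin (3.06 ± 0.55), Lypd6 (2.88 ± 0.57), Gm13782 (2.63 ± 0.55), Dhrs7 (2.57 ± 0.57) and Trps1 (2.40 ± 0.56), and these 5 were not called with only genes of at least 50 CPM. Etv4, at 22.2, 18.3 and 27.9 CPM in the gate, was the single FGF pathway gene called of 16 (2.27 ± 0.47, adjusted p = 0.019). Crym, a crystallin-family protein gene that binds thyroid hormone, was at 412, 618 and 959 CPM in the members against 48.7, 182 and 208 CPM (2.23 ± 0.28, adjusted p = 5.12e-05).

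The 27 genes lower in the members than in the lateral gate included Igfbp5, Igfbp3, Sfrp1 and S100a1. The insulin-like growth factor binding protein gene Igfbp5 was at 353, 373 and 232 CPM in the members and 1922, 1635 and 1016 CPM in the gate (-2.20 ± 0.18, limma's adjusted p = 3.46e-08), and Igfbp3 at 175, 196 and 263 CPM against 933, 1204 and 891 CPM (-2.21 ± 0.22, adjusted p = 1.32e-06). Sfrp1 was at 202, 175 and 360 CPM against 1479, 1157 and 1448 CPM (-2.48 ± 0.20, adjusted p = 4.76e-08). S100a1, a calcium-binding protein gene, was at 738, 384 and 1404 CPM against 2317, 2386 and 3859 CPM (-1.90 ± 0.16, adjusted p = 4.88e-08), the reverse of its relative S100b. The libraries of the members and of the gate did not overlap for any of these 4 genes. Igfbp5 and Igfbp3 are on the list of Deiters cell markers, of which 3 of 6 tested were lower here (with Prss23) and none higher, with a median of -1.0. The 7 genes of that list summed to 830 to 986 CPM in the members and 2594 to 3650 CPM in the gate, with Pdzk1ip1 at 0 in all members; the part of Deiters-type cells in the gate in these differences was not tested. Igfbp3 and S100a1 did not pass against all other cells (-0.10 ± 0.29 and 0.53 ± 0.21). Id3, Id4 and Sox21 were also lower (-0.63 ± 0.14, -1.23 ± 0.25 and -1.53 ± 0.33), as were Cox4i2, Rassf4, Adgrg6 and Raver2, which rested on 0 to 7 UMIs per library in the members. Without the Fabp7-high cells 34 genes were higher and 38 lower. Cox4i2, Adgrg6, Raver2, Etv4, Id3 and Sox21 lost their calls with only genes of at least 50 CPM, where Rassf4 was not tested, and Lypd6, Gm13782, Trps1, Rassf4, Adgrg6, Raver2, Etv4, Id3, Id4 and Sox21 when library 2 or library 3 was left out. Without library 1, Dhrs7, Trps1 and Adgrg6 were not called.

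The inner phalangeal gate was named for supporting cells on the medial side of the inner hair cell. It held 121 E16 cells with Matn4 of at least 2.0 (21, 28 and 72 cells). Its inner phalangeal genes summed to 3924 to 6441 CPM, against 1844 to 2843 CPM in the other cells. Its Kölliker's organ genes summed to 4863 to 5823 CPM, against 240 to 1146 CPM in the members. Its roof genes summed to 685 to 996 CPM and its lesser epithelial ridge genes to 985 to 1320 CPM. The other cells had 556 to 656 and 771 to 970 CPM. The part of such cells in the differences below was not tested. Of 8547 genes, 46 were higher and 74 lower in the members (1.40% of all genes tested, 0.538% higher and 0.866% lower; limma). With the mean of the deposited log values the counts were 99 and 88. The libraries did not overlap for 13.9% of genes (6.63% with the members higher). Without the Fabp7-high cells they were 63 and 91.

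Here 8 of the 9 inner pillar markers were higher, all but Hes5, with a median of 3.31. Fgfr3 was at 33.3, 0 and 0 CPM in the inner phalangeal gate (4.41 ± 0.59, limma's adjusted p = 7.5e-05), Fzd9 at 36.9, 21.2 and 30.8 CPM (3.01 ± 0.52, adjusted p = 0.00152) and Ngfr at 0, 36.0 and 3.92 CPM (4.28 ± 0.60, adjusted p = 8.79e-05). Gm45645 was at 0, 0 and 7.51 CPM (6.06 ± 0.54) and Tectb at 114, 210 and 167 CPM (3.58 ± 0.28). Pcp4, Mdm1, Fam159b, Etv4 and Smagp completed the 8 largest increases. Etv4 and Smagp had no UMI in the inner phalangeal gate and were not called with only genes of at least 50 CPM (adjusted p = 0.076 and 0.13). Prox1 and Smagp lost their calls without library 2 or library 3, Fzd9 and Etv4 without library 3 and Emid1 without library 1. Emid1 and Prox1 were also not called with only genes of at least 50 CPM.

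Lower than in the inner phalangeal gate were the connexin genes Gjb2, at 32.2, 126 and 278 CPM in the members against 2233, 3299 and 3929 CPM (-4.71 ± 0.30, limma's adjusted p = 7.16e-10), and Gjb6 (-3.41 ± 0.71, adjusted p = 0.00941). The galectin gene Lgals1 was at 15.1, 224 and 93.0 CPM (138 CPM in library 2 without the Fabp7-high cells) against 769, 2763 and 2932 CPM (-4.45 ± 0.33, adjusted p = 7.06e-09). Sparcl1, Cox4i2, Mia, Gsn, the chloride channel gene Ano1 and Tdrd12 had differences from -4.99 to -3.55. Gjb6 lost its call without library 2 or library 3, Tdrd12 without library 2, and Cox4i2 and Ano1 without library 3; Gjb6 and Ano1 were also not called with only genes of at least 50 CPM. Of the Deiters cell markers 4 of 6 were lower and none higher (Prss23, Igfbp3, Igfbp5 and Fgf3, the last not called without library 3), with a median of -1.63 and sums of 2432 to 3286 CPM in the gate. Of 9 dissociation stress genes tested, Egr1, Jun, Fos and Ier2 were lower and none higher, with a median of -1.14, and 8 were lower at an unadjusted p under 0.05. The 12 stress genes summed to 2529 to 3405 CPM in the members and 4377 to 10058 CPM in the gate, and Fos, Jun and Ier2 were not called without library 2; the part of stress in the other differences was not tested. Fabp7 itself, an inner phalangeal marker, was at 101, 2848 and 5.78 CPM in the members against 887, 827 and 1043 CPM (-2.43 ± 0.74, adjusted p = 0.143). Fabp7 itself singled out the 6 cells, so no test of this gene without them is given.

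The 3 comparisons share the members, and both gates were drawn from cells that also belong to the other cells of the first comparison, so overlap of their calls is built in. The genes higher in all 3 were 12 of the 101, 22 and 46 called higher in each, among them Gm45645, Ngfr, S100b, Cryab, Cep41, Gm13782, Mdm1, Etv4, Npnt, Dhrs7 and 2810006K23Rik. The 8 genes lower in all (of 172, 27 and 74) were Sfrp1, Igfbp5, Id3, Mia, Clu, Krt18, Ptn and H3f3b. Against the lateral gate, the difference of Mia was 0.17 when the gate needed at least 3 of its 5 genes (limma's adjusted p = 0.941), and Id3 was not called without library 2 or library 3. Of the higher genes, Cep41 lost its call against the lateral gate without library 2 or library 3, as did Mdm1 without library 1 or library 2. Against the inner phalangeal gate, Gm13782 was not called without library 2 or library 3, nor was Npnt without library 2. With only genes of at least 50 CPM, Mdm1 and Mia also lost their calls against the lateral gate, as did Npnt and Gm13782 against the inner phalangeal gate. Gm45645 and Cryab kept their calls under every alternative setting run in all 3 comparisons.

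**Figure D4:**
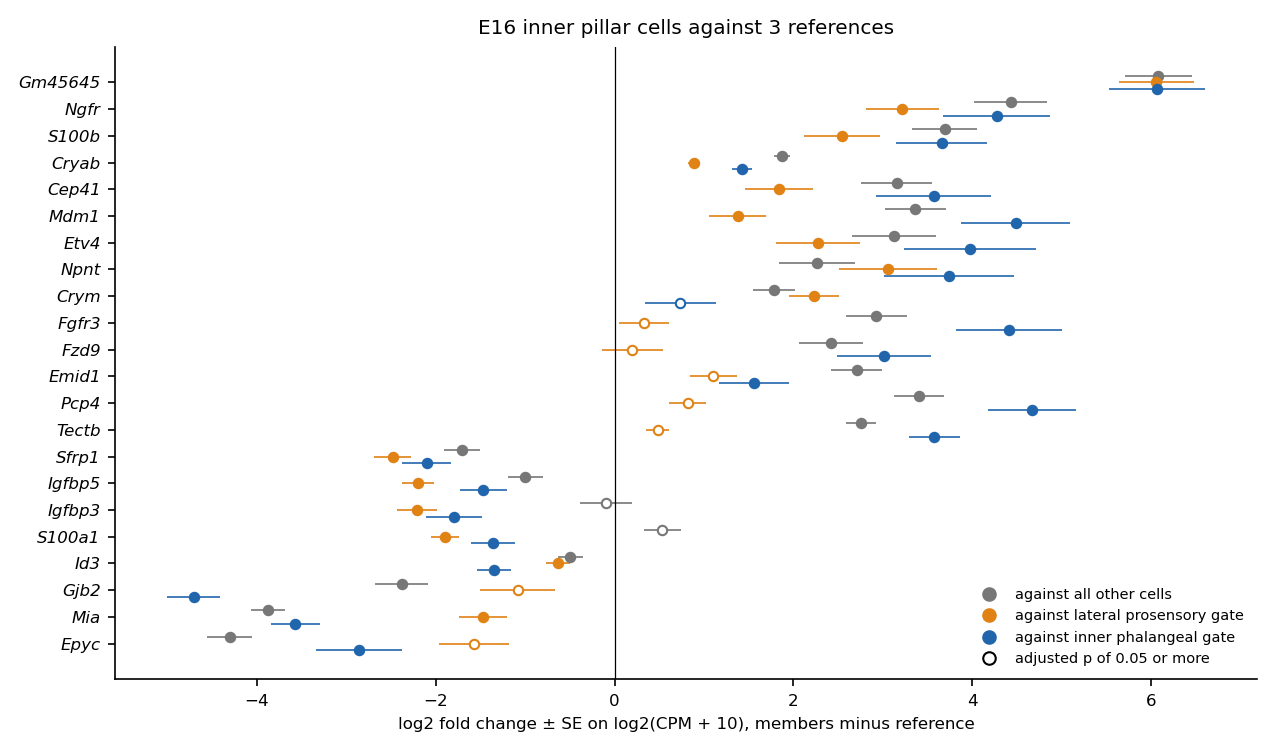
Log2 fold change ± SE on log2(CPM + 10) of selected genes in E16 inner pillar cells against all other cells (grey), the lateral prosensory gate (orange) and the inner phalangeal gate (blue), with open symbols for an adjusted p of 0.05 or more. Gm45645 is at 6.06 to 6.08 against all 3, where its reference levels lie below the 10 CPM added before the log. Fgfr3 falls from 4.41 against the inner phalangeal gate to 0.33 against the lateral gate.

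The same rule was applied to the P1 libraries, and the difference between its cells and the other cells was compared between E16 and P1. The fixed threshold took different parts of the Npy range at these ages. Npy of at least 3.5 was reached by 5 of 14, 11 of 34 and 26 of 52 E16 members in libraries 1 to 3. At P1 it was reached by 54 of 55, 29 of 33, 25 of 27 and 45 of 63 members in libraries 1 to 4. The part of this in the differences between ages was not tested. The level of Npy, which chose the cells at both ages, was 6665 to 17819 CPM in the P1 members and 2754 to 5334 CPM in the E16 members. It was 1719 and 2345 CPM in the E14 members. Gm45645 was at 102 and 0 CPM at E14, at 735 to 842 CPM at E16, at 794, 577, 772 and 48.7 CPM in the 4 P1 libraries, and at 0 in both P7 libraries. Ngfr was at 320 and 133 CPM at E14, 264 to 472 CPM at P1 and 54.9 and 41.8 CPM at P7. S100b was at 59.7 and 19.8 CPM at E14, 400 to 1348 CPM at P1 and 1149 and 1374 CPM at P7. E14 and P7 held few such cells and were not tested.

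The test of the class effect (members minus other cells) at E16 against that at P1 called 22 genes with a higher and 13 with a lower effect at E16 among 8680 (limma; 0.403% of all genes tested, 0.253% and 0.15%). With the mean of the deposited log values the counts were 98 and 130, and without the Fabp7-high cells 22 and 15. The count was fragile: it fell to 7, 2, 3 and 2 when P1 library 1, 2, 3 or 4 was left out, and none of the 16 genes with the largest differences kept its call in every such repeat. Fgfr3 and Fzd9 had differences of -0.63 ± 0.36 and -0.43 ± 0.41 (adjusted p = 0.473 and 0.676).

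Tuba1a and Fstl1 kept their calls when any 1 library of either age was left out. Tuba1a was at 2117, 1869 and 1636 CPM in the E16 members and 6379, 3018, 3139 and 1771 CPM in the P1 members, against 1200 to 1246 and 456 to 1389 CPM in the other cells (difference of effects -1.29 ± 0.16, limma's adjusted p = 0.00293). Fstl1, which encodes a secreted follistatin-like protein, was at 774, 801 and 597 CPM in the E16 members and 688, 696, 681 and 1264 CPM in the P1 members, while the other cells had 745 to 1039 CPM at E16 and 1743 to 3001 CPM at P1 (1.13 ± 0.14, adjusted p = 0.00293). Both lost their calls without a filter on low values, with a pseudocount of 1 CPM, with Npy of at least 3.5 and without the library block.

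Genes whose effect was smaller at E16 than at P1 included 6 of the P1 list, as the choice of that list at P1 favours: Tuba1a, Cryab (-0.97 ± 0.14), Map4 (-2.51 ± 0.37), Stmn1 (-1.34 ± 0.24), Igfbpl1 (-2.80 ± 0.53) and Pkd2l1 (-2.25 ± 0.43). The microtubule-associated protein gene Map4 was at 62.1, 36.5 and 83.3 CPM in the E16 members, within the reach of the other cells at 55.0, 51.1 and 36.7 CPM, and at 312 to 354 CPM in the P1 members. Igfbpl1 was at 16.8, 94.7 and 82.1 CPM at E16 and 688 to 980 CPM at P1. The channel gene Pkd2l1 was at 30.2, 27.1 and 68.6 CPM at E16 and 226 to 257 CPM at P1. For these 3 genes the E16 and P1 members did not overlap, which their choice among the largest called differences favours. The share of all genes without such overlap was not counted. Stmn1 lost its call when any 1 of the 4 P1 libraries was left out, and Cryab without P1 library 2 or 4. In the other direction, Cdkn1c was at 95.4 to 380 CPM in the E16 members and 29.3 to 60.9 CPM in the P1 members, against 868 to 1104 and 468 to 1241 CPM in the other cells (2.02 ± 0.41, adjusted p = 0.0436). With only genes of at least 50 CPM, Stmn1, Igfbpl1, Pkd2l1 and Cdkn1c were not called.

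**Figure D5:**
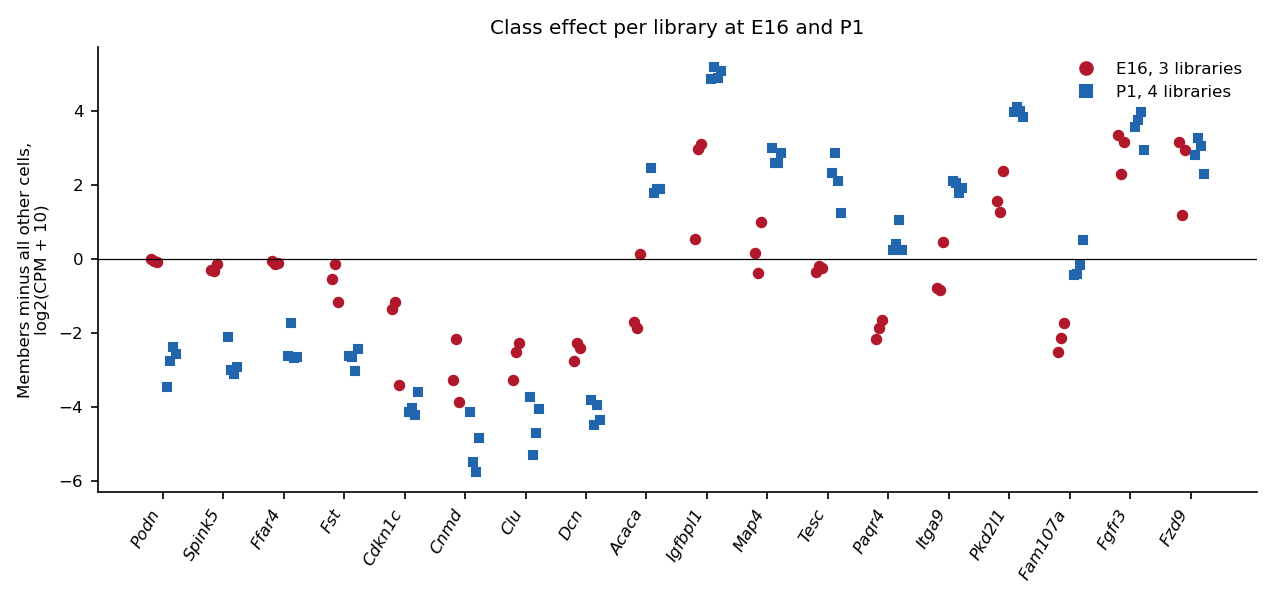
Class effect (members minus all other cells, log2(CPM + 10)) in each of the 3 E16 libraries (red circles) and 4 P1 libraries (blue squares) for the genes with the largest differences between the ages and for Fgfr3 and Fzd9. The ages do not overlap for the 16 called genes, which the call itself favours, and they overlap for Fgfr3 and Fzd9. The share of all genes without such overlap was not counted.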

How the data were processed

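The deposited tables held, per the labels and the study's methods, natural log values of 1 plus UMIs per 10000 in each cell, made by the authors from Cell Ranger 2.1.1 counts on mm10 and Seurat 2.0. Each cell's UMIs were recovered from the smallest step of its values, and 100% of values were whole UMIs within 2%. Every library gave 1 mean CPM per gene for each class, and log2(mean CPM + 10) was fitted with limma 3.58.1 (library as a block, since both classes came from one library; trended eBayes; genes of at least 10 CPM on average; Benjamini-Hochberg over all genes tested). The deposited unit being a log, no count model was used; the recovered UMIs, summed, were an alternative in limma. On simulated data the comparison with all other cells and, less so, that with the lateral gate made more false calls than the nominal rate. The 50 CPM filter removed that excess in the simulation, which held no variation of the class effect between libraries. Prior degrees of freedom were 28.9 for all other cells, 20.5 for the lateral gate and 20.9 for the inner phalangeal gate. Each of these fits had 2 residual degrees of freedom. The test between ages had 10.3 prior and 5 residual degrees of freedom. The members and gene lists were chosen with earlier results of these data known. Genes named are the 12 (first comparison) or 8 largest changes each way with adjusted p under 0.05 and one direction in every library, besides listed genes. For the test between ages, one direction in every library was not required. Doublets were neither called nor removed. Intervals cover counting error only. Gene positions come from GENCODE vM21 on GRCm38, the assembly that mm10 names. Versions were Python 3.11.15 and R 4.3.3. Some genes are not reported here.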

Additional observations from a re-analysis of the deposited data

Results flagged for a closer look

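For 16 genes the difference between inner pillar cells and the other cells was not the same at E16 and P1 by the test of the difference itself (limma). The effect was higher at E16 for Podn (2.74 on the log2 scale), Spink5 (2.53), Ffar4 (2.32), Fst (2.07), Cdkn1c (2.02), Cnmd (1.96), Clu (1.76) and Dcn (1.67). It was lower at E16 for Acaca (-3.16), Igfbpl1 (-2.80), Map4 (-2.51), Tesc (-2.40), Paqr4 (-2.37), Itga9 (-2.36), Pkd2l1 (-2.25) and Fam107a (-2.0). Podn, Spink5 and Ffar4 had no UMI in the E16 members and at most 2.48 CPM in the other E16 cells, while the other P1 cells held 23.3 to 100.4 CPM, so their differences rest on levels that were near 0 in both E16 classes. Tesc also had no UMI in the E16 members and 1.40 to 2.80 CPM in the other E16 cells, and was at 16.2 to 69.0 CPM in the P1 members, so it passed the filter on low values through P1. Paqr4 had no UMI in the E16 members either. Acaca and Itga9 had none in E16 members of libraries 1 and 2, and 13.4 and 14.3 CPM in library 3. The differences of these 3 genes thus rest on levels near 0 in the E16 members. With only genes of at least 50 CPM, Map4, Dcn and Fam107a kept their calls, and the other 13 were not called or not tested. Clu was at 321 to 1489 CPM in the E16 members and 580 to 1412 CPM in the P1 members, and at 3208 to 7311 CPM in the other E16 cells and 16997 to 23907 CPM in the other P1 cells. None of the 16 kept its call in every repeat that left out 1 library.

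In the 4 P1 libraries the class effect of 1 library stood apart for Ffar4 (gap over range 0.935) and for Acaca (0.843), where 18 genes were checked by Dixon's 95% critical value and chance alone sets apart about 1 in 20. For Ffar4 it was library 2 and for Acaca library 1.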

How the results depend on the processing

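Against all other cells the 273 calls became 145 with Npy of at least 3.5, 130 with genes of at least 50 CPM, 75 without a filter on low values, 92 without the replicate block, 101 with a pseudocount of 1 CPM, 429 with summed UMIs, and 156 to 328 when 1 library was left out (156 without library 3). Against the lateral gate the 49 calls became 12 with at least 3 of the 5 lateral genes, 23 at 50 CPM, 10 without the replicate block, 13 with a pseudocount of 1 CPM, and 43 to 53 when 1 library was left out. Against the inner phalangeal gate the 120 calls became 187 with the mean of the deposited log values, 54 without a filter, 27 with a pseudocount of 1 CPM, and 77 (without library 3) to 199 (without library 1). The 35 calls between ages became 58 and 0 with Npy of at least 2.0 and 3.5, 17 with thinned cells, 15 at 50 CPM, 228 with the mean of log values, 0 without a filter, 4 without the replicate block, and 0 and 59 with pseudocounts of 1 and 50 CPM. The 3 counts of 0 (limma) went with 1393, 2149 and 973 genes at an unadjusted p under 0.05. Leaving out 1 library gave 2 to 99 calls between ages: 99, 15 and 55 without E16 libraries 1, 2 and 3. Alternatives chosen after seeing the data were to leave out the Fabp7-high cells (411 calls against all other cells) and to weight libraries by their members (137 lateral, 240 inner phalangeal and 80 between ages). With Npy of at least 3.5 the members were 0.401, 0.391 and 0.666% of libraries 1 to 3.

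A pair of decreases that were called turned into increases that were not: Mia at 0.17 against lateral cells with at least 3 of the 5 genes, and Epyc at 0.47 against inner phalangeal cells with Matn4 of at least 3.0. Uncalled values that changed sign were, against the lateral gate, Fzd9 at -0.0052 (Npy of at least 2.0), -0.0483 (3 lateral genes), -0.0077 (thinned), -0.11 (weighted) and -0.4785 to 0.7688 with 1 library left out (lowest without library 1) and Fgfr3 at -0.0469 to 0.5955 (lowest without library 1). Between ages Fgfr3 was at 0.13 (Npy of at least 3.5) and Fzd9 at -0.7928 to 0.1893 with 1 library left out (highest without E16 library 2). The cause of these changes was not tested. Against all other cells no named gene changed sign in 1846 values. Over the named genes and lists, 3443 of 4350 values under alternatives kept direction and call, and 869 kept direction but not the call. Library 1 held 14 members, so a gene under about 100 CPM there rests on few UMIs.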
